A study of Mus musculus with 24 samples.

Results

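Clustered protocadherins are the genes whose mouse symbol starts with Pcdha, Pcdhb or Pcdhg. Membership followed these letters alone, although the family was chosen with earlier results of these data known. Of 47937 Ensembl gene rows in the deposited count table, 58 met this rule: 14 of the alpha, 22 of the beta and 22 of the gamma cluster. The symbol Pcdha11 stands for 2 of these rows with different gene identifiers. They were followed in RNA-seq of mouse embryonic fibroblasts (MEFs), 3 libraries in each of 8 conditions that differ in the genes for H3K9 lysine methyltransferases (KMTs).

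All 8 conditions descend from 1 clone of MEFs with a conditional Eset1 allele and a tamoxifen-inducible Cre recombinase. WT is this clone (Eset1 cKO) without 4-hydroxytamoxifen (4-OHT), and E1 is the same clone after 4-OHT, which deletes floxed exons of Eset1. In the first series, E1 S1S2 also carries CRISPR/Cas9 frameshift mutations in Suv39h1 and Suv39h2, and 6KO1 in addition lacks Eset2, G9a and Glp, both after 4-OHT. In the second series, E2 is an Eset2 mutant clone without 4-OHT and E1E2 is this clone after 4-OHT. E1E2 G9Gl was made from it by mutating G9a and Glp, and 6KO2 by mutating Suv39h1 and Suv39h2 as well, again with 4-OHT. The lines 6KO1 and 6KO2 thus lack the same 6 enzymes. Each CRISPR mutant genotype is represented by 1 single-cell clone, so genotype and clone cannot be told apart except in 2 pairs, E1 with WT and E1E2 with E2, where 4-OHT is the difference within 1 clone. The paper also states that after CRISPR disruption an inducible Cre construct with puromycin resistance was put back, and that the lines were kept under puromycin. For the CRISPR mutants against WT, this cannot be told apart from genotype either. The 3 libraries of a condition are biological replicates of 1 clone, and the p-values measure the spread between them. The treatment field of the labels names 4-OHT for every sample, and the titles and the paper were followed for WT and E2.

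Clustered protocadherins are cadherin-like adhesion molecules that are best known from neurons, where each cell switches on a few members by the choice of promoters. In the alpha and gamma clusters each member is transcribed from its own promoter and large variable exon, which is spliced to constant exons that the whole cluster shares. Beta members have no constant exons and each is encoded on its own. Promoter choice is known to depend on DNA methylation, on the architectural proteins CTCF and cohesin, and on H3K9 methylation, which keeps silent promoters off.

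In GRCm38 with the GENCODE annotation, the alpha cluster lies on chromosome 18 from 36930184 to 37187661, the beta cluster from 37264938 to 37524479, and the gamma cluster from 37661793 to 37841873. Pcdhb1 (ENSMUSG00000051663) is the first beta member, at 37264938 to 37267525, and Pcdhb22 (ENSMUSG00000073591) the last, at 37517871 to 37524479. Pcdhga1 (ENSMUSG00000103144) opens the gamma cluster at 37661793, and Pcdhgc3 (ENSMUSG00000102918) starts at 37806364. These positions set the order in which members are described. Gamma members share 2116 to 3157 exon bases with other members and alpha members 2860 to 5274, whereas beta members share at most 455, which is the overlap of Pcdhb21 and Pcdhb22. How reads on shared exons were assigned is not given in the sources used here, so the counts of single alpha and gamma members are uncertain to that extent. Exons of 4 alpha, 1 beta and 8 gamma members overlap an antisense gene, and the strand setting of the counting is not given in the sources used here either.

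Between 24737307 and 37419816 counts were assigned per library (median 30218612), of which 19541909 to 31489070 were on genes. A total of 18565 genes passed edgeR's filter on low counts, among them 35 of the 58 clustered protocadherins. Libraries of 1 condition differed by more than counting noise, with a chi-square over genes of 2.25 to 68.4 per degree of freedom. The highest 2 values, 57.2 and 68.4, came from the pairs that hold WT replicate 2. Summed fibroblast markers (11 genes) ranged from 74800 normalised counts in a 6KO1 library to 197000 in an E1E2 G9Gl library, most of it from Vim and 3 collagen genes. Other fibroblast markers were lost in some mutants and kept or raised in others. Thy1 was at 199 in WT but at 1.76 in 6KO2, 0.861 in E1 S1S2 and 0.293 in 6KO1. In E1E2 G9Gl, however, Thy1 was at 412. Pdgfra was at 129 in WT, 13.7 in E1E2 G9Gl and 3.12 in 6KO1. Dcn fell from 36.2 to 2.07 and 0.58 in these 2 lines, but was at 111 in E2 and 138 in 6KO2. Twist1 went from 337 in WT to 17.9 in 6KO1. Prrx1 was at 2120 in WT and between 506 (E1 S1S2) and 2610 (6KO2) in the mutants. Lum was at or near 0 in every condition. Of the targeted KMT genes, Setdb1 (Eset1) fell by 1.19 on the log2 scale in E1E2 G9Gl and had values of -0.57 in E1 and -0.95 in 6KO2, below the minimum for a call, although the exon deletion need not lower the whole transcript. Setdb2 (Eset2) fell by 1.36 to 1.55 on the log2 scale in E2, E1E2, E1E2 G9Gl and 6KO2, and Suv39h1 fell by 1.14 in E1 S1S2 and by 1.73 in 6KO1. Suv39h2 was higher in the libraries labelled E1 S1S2 by 0.76, below the minimum for a call, and fell by 1.47 in E1E2 G9Gl, where it was not targeted. Ehmt1 (Glp) and Ehmt2 (G9a) fell in 6KO1 and E1E2 G9Gl, by 1.05 to 1.69, but in 6KO2 they were at -0.95 and -0.56. Of the 6 targeted genes, Setdb1, Setdb2 and Suv39h2 were not called lower in 6KO1, and in 6KO2 Setdb2 alone was called lower. Frameshift alleles can still be transcribed, so these counts do not check every mutation.

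**Figure D1:**
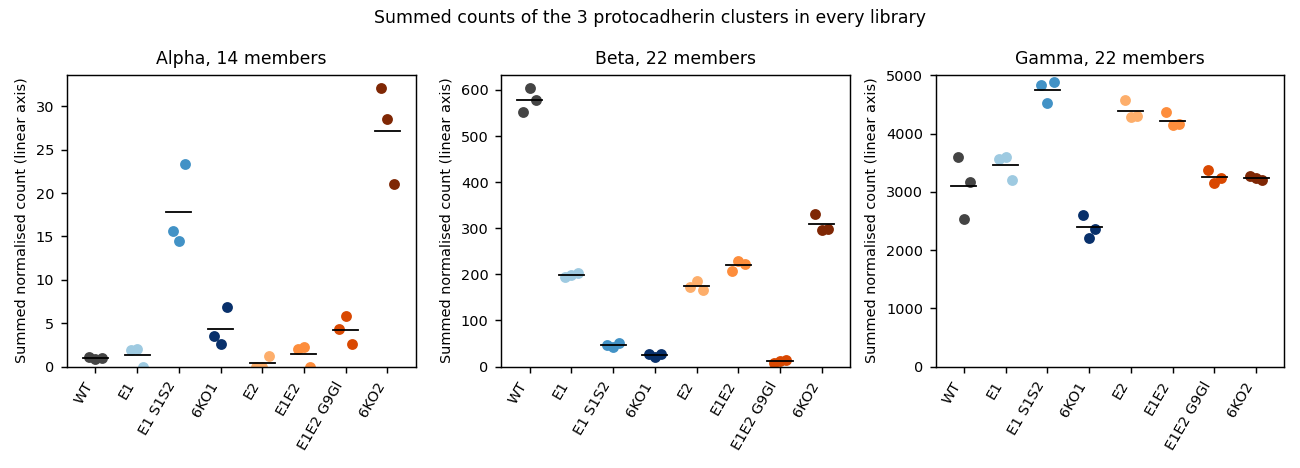
Summed normalised count of the alpha, beta and gamma cluster (vertical axes, linear) in each of the 24 libraries, grouped by condition. Points are libraries and black bars the mean of 3; in the beta panel all mutants lie below WT (mean 579) and 6KO2 (mean 308) stands above the other mutants.

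The 3 clusters behaved differently. Normalised counts are counts divided by the library's effective size relative to the mean, and the cluster sums are given as a description with no test. The beta cluster summed to 579 ± 25.3 (SD, n = 3) in WT and was lower in every mutant. The mildest reductions were to 53.3% of WT in 6KO2, 38% in E1E2, 34.4% in E1 and 30.2% in E2. It was lowest in E1E2 G9Gl at 1.99%, after 6KO1 at 4.3% and E1 S1S2 at 8.12%, and no mutant library overlapped a WT library. The gamma cluster summed to 3100 ± 539 in WT and stayed between 77.2% (6KO1) and 153% (E1 S1S2) of it. The alpha cluster was nearly silent, with 1 count in each WT library. In bulk RNA, fewer cells that express a gene and less RNA per cell cannot be told apart.

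Of the 14 alpha members, none passed the filter and none was tested, and no library held more than 7 counts of any of them. Summed over the cluster, E1 S1S2 libraries held 16, 20 and 26 counts and 6KO2 libraries 19, 25 and 31. The other mutants stayed low, with 3 to 7 counts in 6KO1, 2 to 5 in E1E2 G9Gl and 0 to 2 in E1, E2 and E1E2. E1 S1S2 and 6KO2 thus stood above the WT libraries and above those other mutants, at levels close to the limit of detection. Pcdhac1 and Pcdhac2, the C-type members that lie next to the constant exons and are chosen without the usual randomness in neurons, had 0 counts in WT, at most 3 in E1 S1S2 and at most 2 in 6KO2.

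In WT MEFs, beta transcripts came mainly from the 3' end of the cluster. Pcdhb22 was counted 160, 180 and 164 times, Pcdhb21 99, 149 and 112 times, and Pcdhb17 76, 112 and 83 times. Per kilobase of exon that no other member shares, the WT level was 27 ± 0.564 for Pcdhb22 and 27.8 ± 3.76 for Pcdhb21, which do not differ beyond their spread, and 19.1 ± 2.51 for Pcdhb17. The 7 members from Pcdhb16 to Pcdhb22, a stretch chosen after their values were seen, held 477, 530 and 619 of 519, 577 and 661 beta counts. In contrast, Pcdhb1 to Pcdhb8 had 18 to 20 counts together in a WT library and Pcdhb9 to Pcdhb15 had 22 to 29. These stretches were not set in advance either. The 9 beta members that did not pass the filter never exceeded 15 counts in a library.

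In 6KO1 the 3' beta members were almost silent. Of the 35 tested members, 14 were called lower and 1 higher than in WT, where a gene was called when edgeR's quasi-likelihood test gave a Benjamini-Hochberg adjusted p of no more than 0.01 and the change was 2-fold or larger (1 on the log2 scale). Among all genes tested, 10.2% were called lower and 20.6% higher in this comparison. Of the 13 tested beta members, 8 fell, with a median log2 fold change over the 13 of -6.43, or -4.69 with members at 0 counts set to their bound, against 0.061 over all genes. Pcdhb21 had 0 counts in all 3 6KO1 libraries, which makes it at least 131-fold lower than in WT when 3 counts over the group are taken as the floor. Pcdhb17 was likewise at 0, at least 98.6-fold lower. Pcdhb22 had 2, 3 and 1 counts, and its log2 fold change was -6.43 ± 0.20 (SE; adjusted p = 6.01e-18 by edgeR). The stretch from Pcdhb16 to Pcdhb22 summed to 2, 3 and 4 counts in 6KO1, or 0.503% of WT.

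Pcdhb1 at the opposite end went the other way in 6KO1. It had 15, 8 and 13 counts in 6KO1 against 0, 1 and 0 in WT, and the groups did not overlap. With 1 WT count the ratio was 33, with an exact 95% interval of 5.55 to 1340 that covers counting error only. Its fitted log2 fold change was 4.60 ± 0.74 (adjusted p = 1.64e-05 by edgeR). Pcdhb1 reached the minimum count of the low-count filter in 6KO1 and 6KO2 libraries only, so this rise was partly built into its being tested. Pcdhb2 and Pcdhb3 had 2 to 4 and 2 to 3 counts per 6KO1 library, and were not called.

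E1E2 G9Gl had the lowest beta sum, at 1.99% of WT. The stretch from Pcdhb16 to Pcdhb22 was not lower there than in 6KO1, at 1.03% of WT against 0.503%. Here 10 members were called lower and 10 higher than in WT, with 8.41% and 16.8% of all genes called in these directions. The whole beta cluster summed to 7, 11 and 11 counts per library, and 8 of the 13 tested beta members fell. Pcdhb16 was at 0 in the 3 libraries after 41, 77 and 44 counts in WT, at least 45.7-fold lower. Pcdhb19 was also at 0 after 41, 38 and 49 counts, at least 36.1-fold lower. Pcdhb22 had 2 counts in each library (log2 fold change -6.08 ± 0.21, adjusted p = 2.44e-17 by edgeR). Unlike in 6KO1, Pcdhb1 had only 1, 0 and 1 counts.

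**Figure D2:**
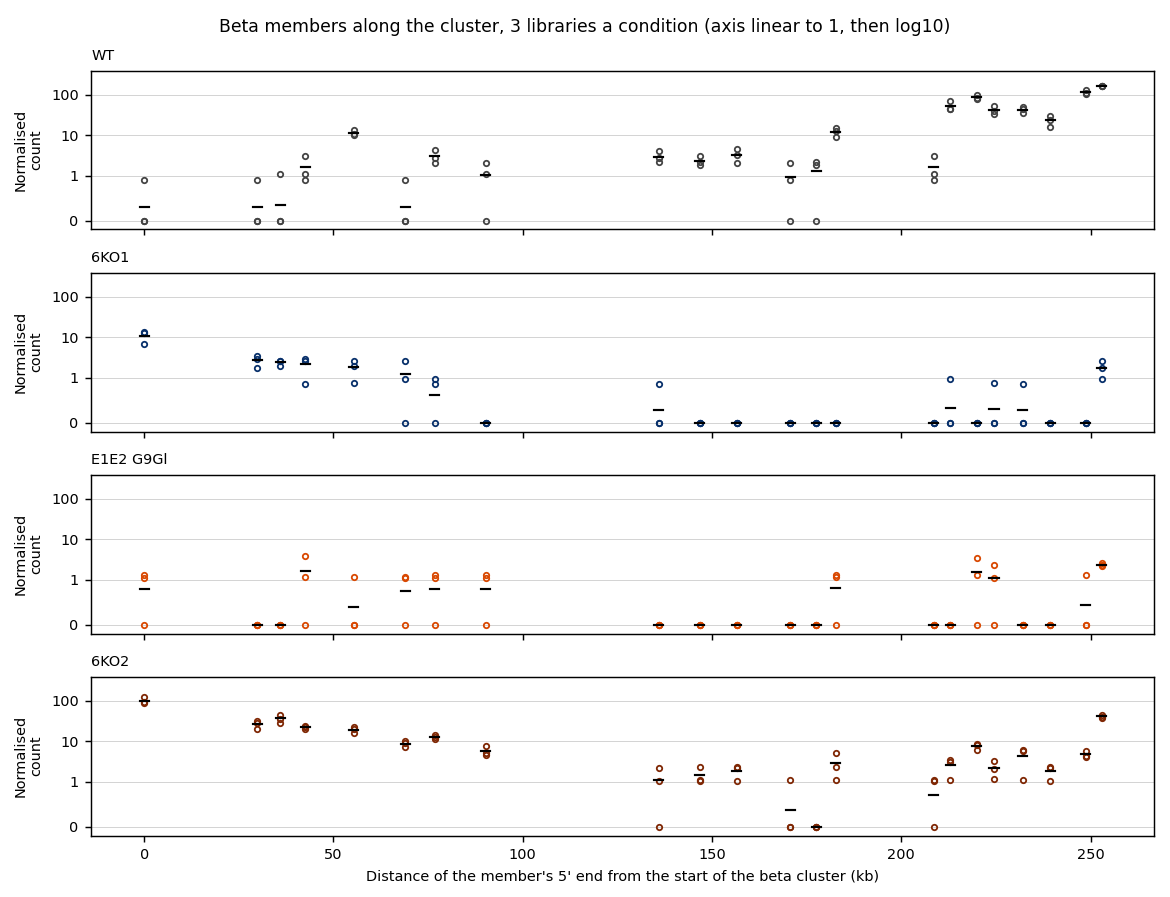
Normalised count of each of the 22 beta members (vertical axis, linear to 1 and log10 above) by the distance of its 5' end from the start of the cluster in kb, in WT, 6KO1, E1E2 G9Gl and 6KO2. Open points are libraries and bars means of 3; WT levels are highest at the right end, 6KO2 levels at the left end, where Pcdhb1 has a mean of 102.

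6KO2, which lacks the same 6 enzymes as 6KO1, had more beta counts at the 5' end of the cluster than at the 3' end. At the 3' end, Pcdhb22 still had 37, 40 and 37 counts. Against WT, 10 members were called lower and 6 higher, and 5.39% and 15.3% of all genes were called in these directions. The stretch from Pcdhb16 to Pcdhb22 was reduced to 56, 59 and 63 counts, 12.1% of WT, and all 7 of its members were called lower. Pcdhb1 to Pcdhb8, a stretch that was not set in advance, rose to 190, 206 and 252 counts, 12.6 times WT. No library overlapped WT, which is a description of this stretch and not a test. Pcdhb1, Pcdhb2, Pcdhb3, Pcdhb4 and Pcdhb7 of this stretch were called higher, of which Pcdhb7 was not called by DESeq2 (log2 fold change 2.10, adjusted p = 0.0289). Pcdhb5 was not called, and Pcdhb6 and Pcdhb8 were not tested.

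Pcdhb1 had 118, 83 and 80 counts in 6KO2 and was the beta member with the most counts in each of these libraries. The ratio to WT was 310 with an exact 95% interval of 55.2 to 12300, and the fitted log2 fold change was 7.81 ± 0.46 (adjusted p = 2.65e-11 by edgeR). Per kilobase of own exon its level in 6KO2 was 39.4 ± 6.92, compared with 6.76 ± 0.616 for Pcdhb22 in the same libraries. Pcdhb3 had 44, 32 and 26 counts against 1, 0 and 0 in WT, and Pcdhb2 had 28, 18 and 29 against 0, 1 and 0. On the scale of counts per kilobase, the 6KO2 mean was 9.67 for Pcdhb2, 9.74 for Pcdhb3, 6 for Pcdhb4 and 5.54 for Pcdhb5. It was 2.34 for Pcdhb6, 3.66 for Pcdhb7 and 1.67 for Pcdhb8. Levels were thus lower away from Pcdhb1, though not in strict order, and the neighbouring values of Pcdhb2 and Pcdhb3 and of Pcdhb4 and Pcdhb5 did not differ beyond their spread. Pcdhb2, Pcdhb3, Pcdhb4 and Pcdhb7 passed the low-count filter through 6KO2 alone, so a difference in this line was built into their being tested. Pcdhb1 reached its minimum count in 6KO1 and 6KO2 libraries only, so the rise of Pcdhb1 over WT was partly built in as well.

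The loss at the 3' end was also present with fewer genes mutated, but there it was not confined to that end. In E1, Pcdhb1 to Pcdhb8, Pcdhb9 to Pcdhb15 and Pcdhb16 to Pcdhb22 summed to 44.5%, 29.1% and 34.3% of WT. These values were 34.2%, 31.6% and 30% in E2 and 46.2%, 41.8% and 37.5% in E1E2. No library overlapped WT in any of these stretches, though the first and second held few counts. In E1, 8 members were called lower and 2 higher, compared with 1.99% and 2.27% of all genes. All of the 8 were beta members, Pcdhb16 to Pcdhb21 from the 3' end and Pcdhb5 and Pcdhb7 from nearer the 5' end. Pcdhb7 had 4, 3 and 2 counts in WT and 0 in E1, and it passed the low-count filter through 6KO2 alone. Its call was lost with the replicate block and without any single WT or E1 library. DESeq2 called neither Pcdhb7 nor Pcdhb5 (adjusted p = 0.0589 for Pcdhb5). Pcdhb5 reached the filter's minimum count in WT and 6KO2 libraries only, so its falls against WT were partly built in. Pcdhb21 dropped to 30, 31 and 33 counts (log2 fold change -1.99 ± 0.21, adjusted p = 3.86e-07 by edgeR), and Pcdhb16 to 6, 12 and 12 (log2 fold change -2.48 ± 0.31, adjusted p = 3.58e-06 by edgeR). These libraries did not overlap WT. Pcdhb22 was less affected, with 102, 108 and 101 counts and a log2 fold change of -0.76 that stayed below the minimum for a call. Its share of all beta counts was 27.2–30.8% in WT and 43.5–53.7% in E1.

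E2, which had received no 4-OHT, had 10 members called lower and 2 higher, with 3.21% and 2.9% of all genes called. Pcdhb21 had 15, 13 and 16 counts in E2 (log2 fold change -2.89 ± 0.24, adjusted p = 6.91e-09 by edgeR), and Pcdhb22 had 58, 91 and 65 (-1.13 ± 0.11). In E1E2, 10 members were lower and 0 higher, with 3.22% and 5.51% of all genes called. DESeq2 also called 0 higher, and 4 had a positive change at an unadjusted p under 0.05 in edgeR. Pcdhb21 was at 10, 15 and 23 counts in E1E2, overlapping E2. E1 S1S2 had 9 lower and 3 higher members, with 5.11% and 6.65% of all genes. In E1 S1S2, Pcdhb22 was at 27, 21 and 28 counts (log2 fold change -2.93 ± 0.13, adjusted p = 1.76e-14 by edgeR) and Pcdhb21 at 7, 1 and 4. The 7 comparisons share the 3 WT libraries and are not independent of each other.

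**Figure D3:**
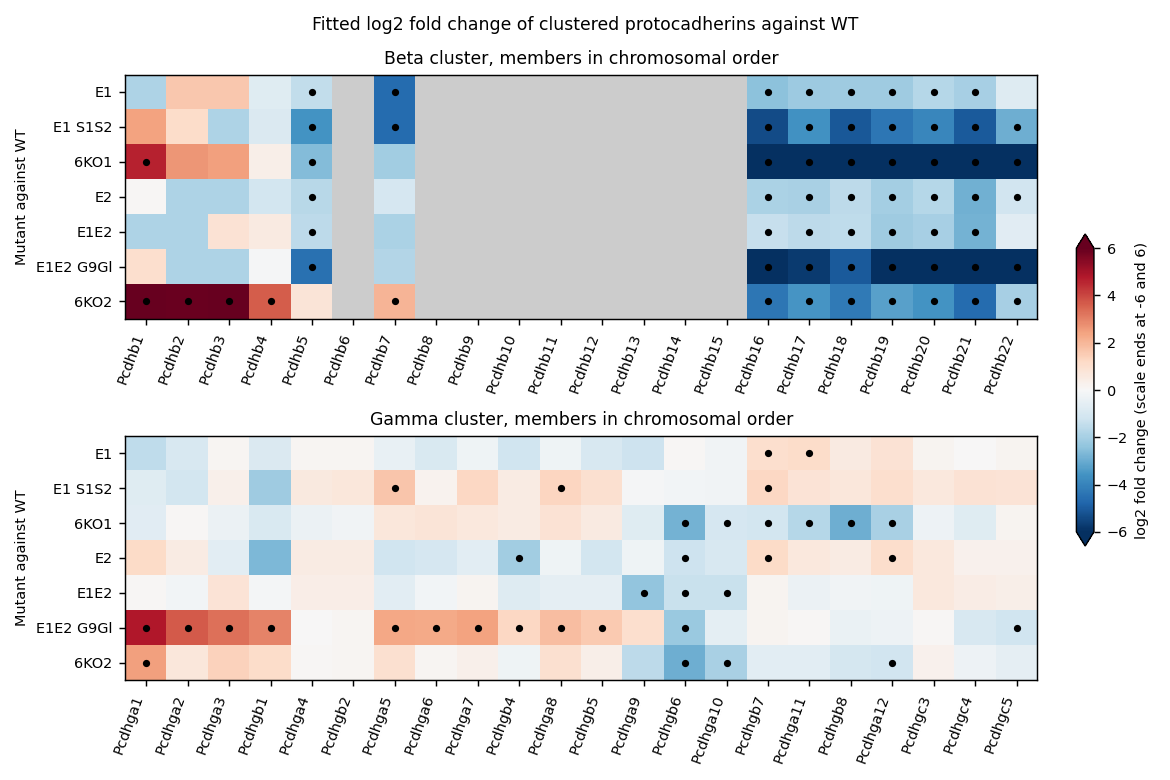
Fitted log2 fold change against WT (colour, scale ends at -6 and 6) of the beta and gamma members in chromosomal order (columns) in the 7 mutants (rows). Dots mark calls and grey marks members that were not tested; Pcdhb16 to Pcdhb21 are called lower in all 7 rows, and the gamma members called higher are mostly in the E1E2 G9Gl row.

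The 6 members Pcdhb16 to Pcdhb21 were called lower in each of the 7 comparisons with WT by edgeR. None of the 6 reached the minimum count of the low-count filter in E1 S1S2, 6KO1, E1E2 G9Gl or 6KO2. Their WT counts helped them pass, so these falls were partly built into their being tested. This holds most for Pcdhb20, which reached the minimum in 4 libraries, of WT and E1 only. Pcdhb16, Pcdhb17, Pcdhb19 and Pcdhb21 kept these calls under every alternative run, whereas Pcdhb20 and Pcdhb18 did not. DESeq2 did not call Pcdhb20 in E1, E2 or E1E2, with adjusted p of 0.0466, 0.0358 and 0.012. Its call in E1 was also lost without WT replicate 1 or 3 or E1 replicate 1 or 2, and that in E2 without WT replicate 1 or 3 or any E2 replicate (adjusted p up to 0.0406 by edgeR). In fits to the 6 libraries compared, Pcdhb20 was not called in E1 and E2 (adjusted p = 0.14 and 0.0131 by edgeR), and neither was Pcdhb18 in E2 and E1E2 (0.0235 and 0.0135). Without WT replicate 2, the library that stood apart, between 8 members (E1) and 15 (6KO1) were called lower per comparison. Members called higher without it numbered 1 in 6KO1, 6 in 6KO2, 9 in E1E2 G9Gl and 0 in the other mutants by edgeR. The rises in E1 were also lost, to 0 calls, without WT replicate 1, E1 replicate 1 or E1 replicate 2, and those in E2 without E2 replicate 2. The 8 lower calls in E1 became 5 without WT replicate 1 or 3. When only the 6 libraries compared were fitted, 6 members were lower in each of E2 and E1E2, 5 in E1 and 9 in 6KO1.

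The effect of 4-OHT can be compared between the parent clone, as E1 against WT, and the Eset2 mutant clone, as E1E2 against E2. In the second pair Pcdhga12 alone of the 35 members was called, as lower (log2 fold change -1.29 ± 0.23, adjusted p = 0.000305 by edgeR), while 0.657% of all genes were called lower and 2.32% higher. Without E2 replicate 1 the members called lower numbered 3, and without E2 replicate 3 or E1E2 replicate 2 they numbered 2. The interaction term of the edgeR fit was past an adjusted p of 0.01 for 8 members, 5 with a negative and 3 with a positive difference, while it was for 4.4% and 4.49% of all genes in these directions. Pcdhb17 changed by -2.16 in the parent clone and 0.37 in the Eset2 mutant clone on the log2 scale (difference -2.53 ± 0.35, adjusted p = 2.87e-05 by edgeR). Pcdhb16, Pcdhb18, Pcdhb21 and Pcdhb22 had differences of the same sign, between -2.99 and -1.19. For Pcdhga11, Pcdhga12 and Pcdhgb7 the difference was positive, from 1.99 to 2.15. The beta members were already low in E2 before 4-OHT, and E1 and E1E2 had beta sums of 199 ± 4.81 and 220 ± 10.9.

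Along the first series, E1 S1S2 had 6 members lower and 4 higher than E1, with 3.75% and 4.31% of all genes called. The 4 were Pcdhga5, Pcdhga8, Pcdhgb4 and Pcdhgb5, of which 2 were called without E1 replicate 3 or without E1 S1S2 replicate 1. All 4 reached the minimum count of the low-count filter in E1 S1S2 but not in E1, so their rises were partly built in. Pcdhb22 fell by 2.17 and Pcdhb21 by 3.07 on the log2 scale in this step. From E1 S1S2 to 6KO1 another 9 fell and 1 rose, with 5.02% and 16.3% of all genes called. In this step Pcdhb22 fell again by 3.50, Pcdhb17 went from 25 summed counts to 0, and Pcdhb1 rose from 8 to 36 (log2 fold change 2.19 ± 0.49, adjusted p = 0.000726 by edgeR). The members that fell included Pcdhgb6, Pcdhgb7, Pcdhgb8, Pcdhga11 and Pcdhga12, which lie between Pcdhgb6 and Pcdhga12 in the gamma cluster.

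Along the second series, the step from E1E2 to E1E2 G9Gl had 10 members lower and 11 higher, with 6.78% and 14.8% of all genes called. The 11 include Pcdhgb1, Pcdhga2 and Pcdhga3, which passed the low-count filter through E1E2 G9Gl alone. Pcdhga1, also among them, reached its minimum count in E1E2 G9Gl and 6KO2 only. Pcdhga5, Pcdhga6, Pcdhga7, Pcdhga8, Pcdhga9 and Pcdhgb4 reached it in E1E2 G9Gl but not in E1E2. The rises of all these members were thus at least partly built in. Pcdhb22 went from 97, 94 and 106 counts to 2 in each library (log2 fold change -5.39 ± 0.22, adjusted p = 1.19e-15 by edgeR). In the step from E1E2 G9Gl to 6KO2, of the 13 tested beta members 10 rose and the others were not called, and of the 22 gamma members 11 fell and the others were not called, while 7.19% and 9.12% of all genes were called higher and lower. Of the 10 rises, those of Pcdhb2, Pcdhb3, Pcdhb4 and Pcdhb7 were built into the filter, which they passed through 6KO2 alone, and so were the falls of Pcdhgb1, Pcdhga2 and Pcdhga3, which passed through E1E2 G9Gl alone. Pcdhb1 and Pcdhb5, also among the rises, reached the filter's minimum count in 6KO2 but not in E1E2 G9Gl. Pcdhga5, Pcdhga6, Pcdhga7 and Pcdhga9, among the falls, reached it in E1E2 G9Gl but not in 6KO2. Pcdhb22 rose from 6 summed counts to 114 (log2 fold change 4.08 ± 0.26, adjusted p = 8.25e-12 by edgeR). DESeq2 called 8 in each direction. It did not call Pcdhb17 and Pcdhb21 (adjusted p = 0.0156 and 0.0166), nor the gamma members Pcdhga10, Pcdhgb1 and Pcdhgb5 (0.0103, 0.0148 and 0.0123). Leaving out any 1 of the 6 libraries left 7 or 8 rises, with Pcdhb17, Pcdhb19 and Pcdhb21 among those lost, and 9 to 11 falls.

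The lines 6KO1 and 6KO2 were also compared directly. Of the 35 members, 11 were lower in 6KO1 and 0 higher, while 7.1% and 9.77% of all genes were called in these directions. DESeq2 also called 0 higher, and 2 had a positive difference at an unadjusted p under 0.05 in edgeR. Of the 11, 10 were beta members, from both ends of the cluster, and the other was Pcdhga1. At the 5' end, Pcdhb2, Pcdhb3, Pcdhb4 and Pcdhb7 had been tested through their 6KO2 counts alone, so that their difference was built in. Pcdhb1 and Pcdhb5 reached the filter's minimum count in 5 libraries each, of 6KO1 and 6KO2 for Pcdhb1 and of WT and 6KO2 for Pcdhb5. Their 6KO2 counts thus also helped them pass, and no call at this end is free of the filter. At the 3' end, the call of Pcdhb19 was lost without 6KO1 replicate 1 or 3 or 6KO2 replicate 1 or 2 (adjusted p from 0.0237 to 0.0342 by edgeR). Pcdhb1 had 36 summed counts in 6KO1 and 281 in 6KO2 (log2 difference -3.21 ± 0.25, adjusted p = 2.46e-09 by edgeR). Pcdhb22 had 6 and 114 (-4.43 ± 0.26, adjusted p = 1.07e-12 by edgeR). Clone, series and the order of the mutations differ between these lines and cannot be told apart.

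In the gamma cluster, 3 members made up most counts in every condition. Pcdhgc3, a C-type member that is expressed in many tissues, had 1779, 1444 and 1563 counts in WT, 49.6–52.6% of the cluster. Pcdhga4 had 638, 530 and 638 and Pcdhgb2 had 385, 322 and 387. On the scale of counts per kilobase of own exon, WT levels were 470 ± 85.5 for Pcdhgc3, 383 ± 66.2 for Pcdhga4 and 132 ± 22.4 for Pcdhgb2. These spreads come from the same 3 libraries, so they cannot decide whether Pcdhgc3 and Pcdhga4 differ. The counts may also hold reads on shared exons, whose length is left out. Part of the Pcdhga4 exon overlaps an annotated exon of Pcdhgb1, and that part was left out of its own exon.

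Pcdhga4 and Pcdhgb2 kept nearly fixed proportions to Pcdhgc3. Over the 24 libraries, Pcdhga4 was between 30 and 40.8% of the Pcdhgc3 count and Pcdhgb2 between 17.6 and 26.5%. Other members varied far more against Pcdhgc3, such as Pcdhgb6 with 0.88 to 9.97%. The counts of these members come from the same libraries and share constant exons with Pcdhgc3, so the proportions are a description.

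**Figure D4:**
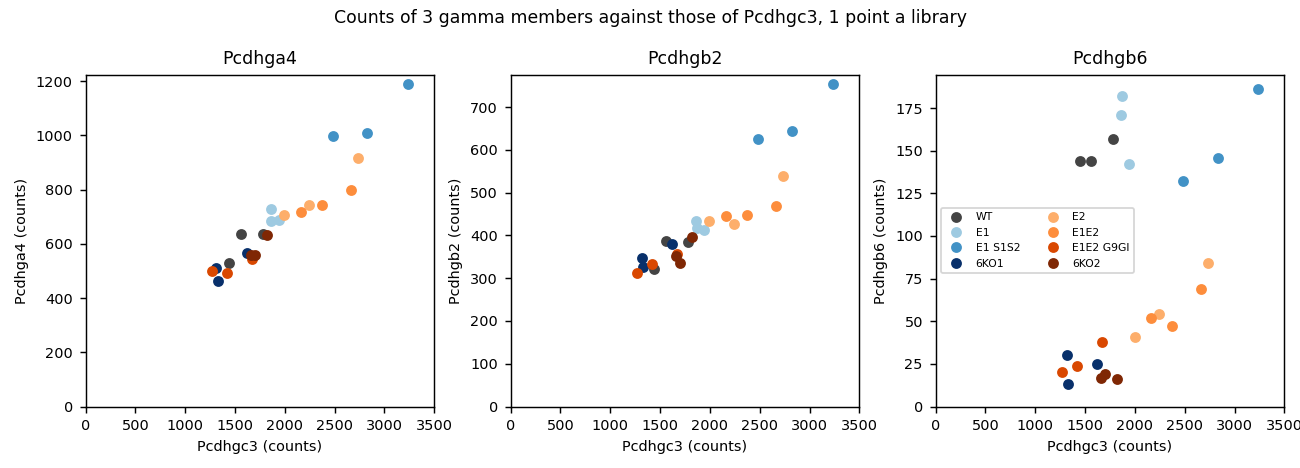
Counts of Pcdhga4, Pcdhgb2 and Pcdhgb6 (vertical axes) against those of Pcdhgc3 (horizontal axes), 1 point a library, coloured by condition. Pcdhga4 and Pcdhgb2 follow Pcdhgc3 closely, whereas Pcdhgb6 falls in 2 bands, with WT, E1 and E1 S1S2 between 132 and 186 counts and the others between 13 and 84.

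Pcdhgc3 itself was not called in any mutant. Its log2 fold change was 0.65 ± 0.094 in both E2 and E1E2, 0.62 ± 0.093 in E1 S1S2, 0.24 ± 0.094 in 6KO2 and -0.31 ± 0.095 in 6KO1. In E1E2 G9Gl it was 0.09 ± 0.094, and -0.03 without WT replicate 2. Normalised counts were 1590 ± 289 in WT, 2440 ± 165 in E1 S1S2 and 1290 ± 140 in 6KO1. The other C-type members had their lowest counts in E1E2 G9Gl. Pcdhgc5 was at 41, 36 and 33 counts against 116, 76 and 103 in WT (log2 fold change -1.19 ± 0.21, adjusted p = 2.85e-05 by edgeR), and Pcdhgc4 was at 61, 51 and 50 against 138, 116 and 118 (-0.96 ± 0.15, below the minimum for a call). In E1 S1S2 they had log2 fold changes of 0.84 and 0.89, which were not calls either.

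E1E2 G9Gl was the condition with most gamma members called higher, 10 of 22. Pcdhga1, the first gamma member, had 93, 59 and 72 counts against 4, 1 and 4 in WT, and the groups were far apart (log2 fold change 4.82 ± 0.28, adjusted p = 2.98e-13 by edgeR). Pcdhga2 had 31, 26 and 13 against 1, 2 and 3, Pcdhga3 had 22, 20 and 19 against 4, 2 and 1, and Pcdhgb1 had 23, 26 and 13 against 6, 3 and 0. Their log2 fold changes were 3.70 ± 0.43, 3.30 ± 0.47 and 2.97 ± 0.51. These 4 neighbours at the 5' end, grouped after their values were seen, summed to 117, 131 and 169 counts, 15.5 times WT.

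Farther along the cluster the rises in E1E2 G9Gl were smaller, and the abundant Pcdhga4 and Pcdhgb2 in between had log2 fold changes of 0 and 0.11. Pcdhga5, Pcdhga6 and Pcdhga7 rose by 2.29 to 2.41 on the log2 scale, Pcdhga8 by 1.83, Pcdhgb5 by 1.57 and Pcdhgb4 by 1.25. Pcdhga9 and the members after it were not called higher, and Pcdhgb6 and Pcdhgc5 fell. Pcdhgb1, Pcdhga2 and Pcdhga3 passed the low-count filter through E1E2 G9Gl alone. Pcdhga1, Pcdhga5, Pcdhga6, Pcdhga7, Pcdhga8 and Pcdhgb5 reached its minimum count in mutant libraries only, so their rises over WT were partly built in. For Pcdhga1 these were E1E2 G9Gl and 6KO2, the lines in which it was called higher. In 6KO2 the 4 neighbours summed to 27, 31 and 33 counts, 3.19 times WT, and Pcdhga1 alone was called, with 15, 17 and 15 counts (log2 fold change 2.48 ± 0.37, adjusted p = 3.98e-06 by edgeR). In 6KO1 they summed to 7, 7 and 10 counts, within the WT range of 8 to 15 or just below it.

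**Figure D5:**
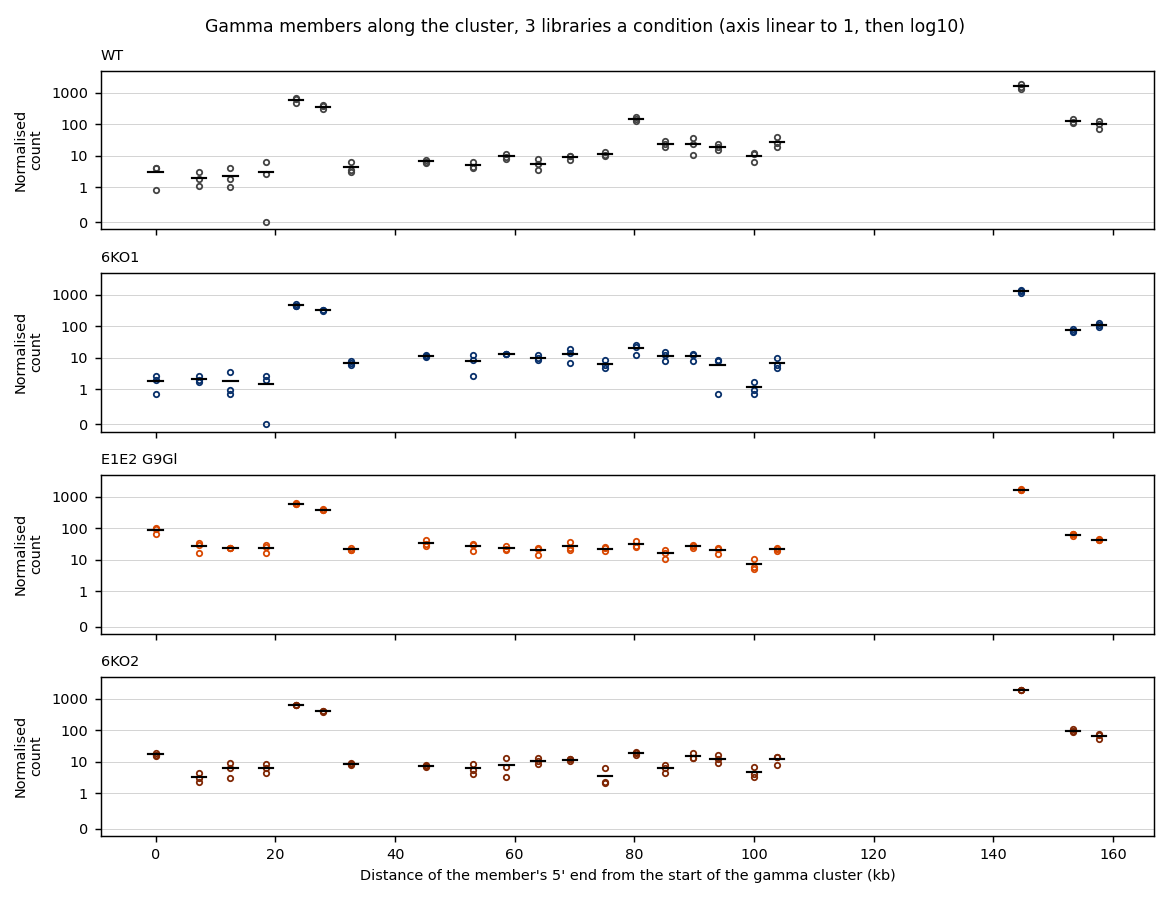
Normalised count of each of the 22 gamma members (vertical axis, linear to 1 and log10 above) by the distance of its 5' end from the start of the cluster in kb, in WT, 6KO1, E1E2 G9Gl and 6KO2. Open points are libraries and bars means of 3; in E1E2 G9Gl the left end lies above WT, with a mean of 87.3 for Pcdhga1, while Pcdhga4, Pcdhgb2 and Pcdhgc3 change little.

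Pcdhgb6 was called lower in more mutants than any other gamma member, 5 of 7. It had 157, 144 and 144 counts in WT and similar numbers in E1 (171, 182 and 142). In 6KO1 it had 25, 30 and 13 counts (log2 fold change -2.84 ± 0.22, adjusted p = 5.88e-11 by edgeR), and in 6KO2 it had 16, 17 and 19 (-2.95 ± 0.23, adjusted p = 1.48e-10 by edgeR). It also fell in E1E2 G9Gl (-2.21 ± 0.21), E2 (-1.22 ± 0.19) and E1E2 (-1.34 ± 0.19). No library of these 5 conditions reached the lowest WT count. In 6KO1 its neighbours fell as well: Pcdhgb8 by 2.91, Pcdhga12 by 1.96, Pcdhga11 by 1.71, Pcdhgb7 by 1.09 and Pcdhga10 by 1.03 on the log2 scale. The call of Pcdhgb7 was lost with no TMM factor, in the fit to the 6 libraries compared (adjusted p = 0.067 by edgeR) and without WT replicate 1 or 3 or any 6KO1 replicate, reaching -0.63 without WT replicate 3 (adjusted p = 0.124 by edgeR). That of Pcdhga10 was lost with no TMM factor, with DESeq2 (adjusted p = 0.0112), in the fit to the compared libraries (0.0151 by edgeR) and without WT replicate 3 or 6KO1 replicate 3, and that of Pcdhga11 in the fit to the compared libraries (adjusted p = 0.0156 by edgeR). In 6KO2, Pcdhga10 fell by 1.94 and Pcdhga12 by 1.14, the latter call being lost in the fit to the compared libraries (adjusted p = 0.0247 by edgeR) and without WT replicate 3 or 6KO2 replicate 2.

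Fewer gamma members were called higher in the other mutants, at most 3 in any of them. Pcdhgb7 was called higher in E1, E1 S1S2 and E2, with log2 fold changes of 1.03, 1.22 and 1.14. Pcdhga11 was higher in E1 (1.09), Pcdhga12 in E2 (1.05), and Pcdhga5 and Pcdhga8 in E1 S1S2 (1.68 and 1.30). Each of these calls was lost without WT replicate 2. In fits to the 6 libraries compared, that of Pcdhga5 alone was kept (adjusted p of the others 0.0125 to 0.143 by edgeR). The call of Pcdhga8 was also lost with DESeq2 (adjusted p = 0.0263) and without WT replicate 1 or any E1 S1S2 replicate. That of Pcdhga5 was lost without WT replicate 3, and that of Pcdhga12 without E2 replicate 2 or 3. The WT counts of Pcdhgb7 were themselves spread from 12 in replicate 2 to 37 in replicate 3.

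Genes that share the neighbourhood were read from a list of 20 genes next to or between the clusters, all of which were tested. Of these, 3 were called higher and 1 lower in both 6KO lines, and 3 and 2 in E1E2 G9Gl. Of all genes, 16.8% were called higher and 8.41% lower in E1E2 G9Gl, while 6KO2 had 15.3% and 5.39% and 6KO1 had 20.6% and 10.2%, and the list's counts are near these shares. Its median log2 fold change was 0.03 in 6KO1, 0.13 in 6KO2 and -0.20 in E1E2 G9Gl, beside 0.061, 0.041 and 0.0088 for all genes. Taf7, a transcription factor subunit gene that lies between the beta and gamma clusters, rose in E1E2 G9Gl by 1.34 ± 0.14, from 213 ± 69.9 to 544 ± 14.3 normalised counts. Slc25a2, a mitochondrial carrier gene, rose there by 1.61 ± 0.28. Arap3, which encodes a GTPase-activating protein, was called higher in the 3 lines, most in E1E2 G9Gl, by 5.13, then by 3.53 in 6KO1 and 2.56 in 6KO2. Spry4, a feedback inhibitor of growth factor signalling, fell by 4.86 in 6KO1 and by 1.81 in E1E2 G9Gl and rose by 1.09 in 6KO2. Fchsd1 rose by 1.60 in 6KO1 and 1.42 in 6KO2. Outside the list, 2 long noncoding RNA genes that lie between the beta and gamma clusters, chosen after their values were seen, were called higher in the same 3 lines. 4930517L18Rik (ENSMUSG00000104225) had 0 counts in every WT library, 88 to 97 in 6KO1, 18 to 32 in 6KO2 and 5 to 12 in E1E2 G9Gl. 3222401L13Rik (ENSMUSG00000073590) had at most 1 count in a WT library, 4 to 10 in 6KO2, 4 to 7 in 6KO1 and 10 to 17 in E1E2 G9Gl. Both stayed at 2 counts or fewer in every library of the other 4 mutants.

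Non-clustered protocadherins lie elsewhere in the genome. Of 12 listed, 7 were tested, and 6KO1 had 4 higher and 2 lower, 6KO2 had 5 and 2, and E1E2 G9Gl had 3 higher. Among all genes too, higher calls outnumbered lower calls in these lines (15.3% to 20.6% against 5.39% to 10.2%). Pcdh17 went from 0.913 ± 1.58 normalised counts in WT to 396 ± 0.744 in 6KO2, 2030 ± 75.9 in 6KO1 and 3200 ± 121 in E1E2 G9Gl, and it was called higher in all 7 mutants. Pcdh10 was at 0 in WT and at 541 ± 6.81 in 6KO1 and 105 ± 24.2 in 6KO2, but at 0.719 ± 1.25 in E1E2 G9Gl, where it was not called. Pcdh1 rose to 395 ± 54.1 in 6KO1 from 0.639 ± 0.555 in WT. Pcdh15 was at 0 in WT and reached 6.88 ± 1.72 in 6KO1 and 45.6 ± 7.23 in 6KO2. Pcdh18 and Pcdh19 fell in both 6KO lines, by 1.76 and 1.85 in 6KO1 and by 1.44 and 1.18 in 6KO2.

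Of 26 listed regulators of these promoters, all were tested, and 2 were called higher and 1 lower in both 6KO lines, and 3 and 1 in E1E2 G9Gl. These are smaller shares than the 15.3% to 20.6% higher and 5.39% to 10.2% lower of all genes. Ctcf, which encodes the architectural protein that loops the promoters to enhancers, was not called in these lines, its log2 fold changes lying between -0.39 ± 0.055 (6KO1) and 0.09 ± 0.055 (E1E2 G9Gl). Smchd1, a chromatin protein known to repress these clusters, was also not called, although its values were all negative, from -0.62 ± 0.049 in E1E2 G9Gl to -0.35 ± 0.049 in 6KO2. Tet1, which encodes an enzyme that oxidises methylated DNA, fell from 483 ± 56.6 normalised counts in WT to 22.5 ± 5.93 in 6KO1, where it was lowest, and to between 62 ± 15.8 (E1E2 G9Gl) and 66.1 ± 7.13 (6KO2) in the other 2 lines. Atf7ip, whose product is a partner of ESET, was called higher in all 7 mutants, most in 6KO1, by 2.11 on the log2 scale. Mbd1, which encodes a methyl-CpG binding protein, rose by 2.80 in E1E2 G9Gl and 1.41 in 6KO2, and Lrif1, which encodes a partner of Smchd1, rose by 1.17 in 6KO1 and 1.31 in E1E2 G9Gl. Whether any of these moved the protocadherins was not tested.

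Of 18 genes for partners and processing enzymes of clustered protocadherins, 17 were tested. Of these, 2 were called higher in 6KO2, 2 higher and 1 lower in E1E2 G9Gl, and 1 in each direction in 6KO1, against 15.3% to 20.6% of all genes higher and 5.39% to 10.2% lower. Ptk2b, a focal adhesion kinase family gene whose product binds the constant domains, rose in the 3 lines, by 2.58 in 6KO2 and up to 3.44 in 6KO1. Fyn, a Src family kinase gene, fell by 1.87 in 6KO1, and Abi2, a subunit gene of the WAVE complex, fell by 1.03 in E1E2 G9Gl. Ret, a receptor tyrosine kinase gene, rose by 3.25 in E1E2 G9Gl and 3.16 in 6KO2, from 1.04 ± 1.07 normalised counts in WT.

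Because clustered protocadherins are known from neurons, neuron markers were read in the same libraries. The 8 markers summed to 683 to 846 normalised counts in WT and 517 to 606 in 6KO1, with 987 to 1070 in E1 S1S2, 1420 to 1580 in E2 and 1550 to 1800 in E1. The sums were larger in E1E2 G9Gl (2290 to 2410), E1E2 (3060 to 3300) and 6KO2 (4010 to 4450), and in all conditions most of the sum came from Tubb3. Map2 was at 11.3 in WT, 674 in E1E2 G9Gl and 743 in 6KO2, and Stmn2 at 0.335, 49 and 46.1, but Snap25 was at 0, 58.3 and 10.1 and Tubb3 at 726, 1580 and 3350. The neuron-defining Rbfox3 and Dcx were at or near 0 in all conditions. Endothelial markers (4 genes) summed to 11.9 to 14.9 in WT and at most 140 in a mutant library, immune markers (5 genes) to 92.2 to 109 and at most 560, mostly Cd68, epithelial markers (5 genes) to 30.9 to 50.2 and at most 451, mostly Krt8, and pluripotency markers (3 genes) stayed at 18.1 or below. The part of any of these in the protocadherin values was not tested.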

How the data were processed

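Total RNA of 24 MEF cultures, 3 biological replicates in each of 8 conditions, was sequenced as stranded paired reads. Reads were trimmed with cutadapt 1.8.1 and mapped with STAR 2.5.2b to GRCm38, and the authors deposited the whole-number counts per gene and repeat element that TEtranscripts gave for each library. The genome build and tools are those of the submitters' processing notes and the study's methods. The strand setting and the assignment of reads on exons shared by several members are not given in the sources used here.

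From these counts, the 47937 gene rows were taken and 1445 repeat rows were left out, as was 1 malformed row. Symbols were matched for 47224 gene identifiers. Members and gene lists were chosen with earlier results of these data known. Genes that passed filterByExpr (18565) were scaled by TMM and fitted over all 24 libraries with edgeR 4.0.16 in R 4.3.3, with 1 coefficient per condition. Quasi-likelihood tests were two-sided, and p-values were adjusted by Benjamini-Hochberg over all genes tested. A call needed an adjusted p of at most 0.01 and a change of at least 2-fold, as in the study. The 13 comparisons were 7 with WT and 6 between other conditions, and the difference in the 4-OHT effect was tested as an interaction. The script recovered known changes in simulated counts. An exact permutation test of 3 against 3 libraries cannot go below 0.1, so none is given.

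The effective library size relative to the mean scaled the normalised counts. Where a group held 0 counts, 3 counts over its libraries were taken as the floor; ratios to groups with 1 to 3 counts carry exact 95% intervals. Intervals and floors cover counting error only. Levels between genes were compared as the whole count of a member per kilobase of exon that no other member shares.

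Values per library are given for the 4 tested members of a cluster with the highest means, the 4 with the largest called changes and the C-type members, and for up to 4 called genes of each other list. Pcdhb2, Pcdhb3, Pcdhb4, Pcdhgb6 and other members named beside these, and Taf7, were chosen after their values were seen. The alternatives were other scalings, DESeq2 1.42.0, no filter, no fold change minimum, unadjusted p, fits to the compared libraries, a replicate block and leaving out each library. A search for a promoter motif was not run, and no sequence is given.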

Additional observations from a re-analysis of the deposited data

Results flagged for a closer look

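The response to 4-OHT differed between the parent clone (E1 minus WT) and the Eset2 mutant clone (E1E2 minus E2) for 8 members, by the interaction term of the edgeR fit at an adjusted p of no more than 0.01, which 4.4% of all genes passed with a negative and 4.49% with a positive difference. On the log2 scale the difference was -2.99 for Pcdhb16, -2.53 for Pcdhb17, -2.16 for Pcdhb18, -2.07 for Pcdhb21 and -1.19 for Pcdhb22, and it was 2.15 for Pcdhga12, 2.06 for Pcdhga11 and 1.99 for Pcdhgb7. The 5 beta members had changes between -2.48 and -0.76 in the parent clone and between 0.04 and 0.52 in the Eset2 mutant clone, where they were already below WT.

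The 2 lines that lack all 6 enzymes differed in 11 members by the direct edgeR test of 6KO1 against 6KO2. At the 5' end of the beta cluster the log2 differences were -3.21 for Pcdhb1, -3.27 for Pcdhb2, -3.87 for Pcdhb3, -3.32 for Pcdhb4, -3.35 for Pcdhb5 and -4.14 for Pcdhb7, of which Pcdhb2, Pcdhb3, Pcdhb4 and Pcdhb7 passed the low-count filter through 6KO2 alone. Pcdhb1 and Pcdhb5 passed it in part through 6KO2. At the 3' end of the cluster the differences were -4.43 for Pcdhb22, -3.39 for Pcdhb19, -5.28 for Pcdhb21 and -5.96 for Pcdhb17, the last 2 fitted against groups at 0 counts, for which the bounds are at least 5.22-fold and 8.43-fold lower. The call of Pcdhb19 was lost when any of 4 single libraries was left out. Pcdhga1 differed by -3.15. These lines also differ in clone and in the order of the mutations, which cannot be told apart.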

How the results depend on the processing

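Of 243 results on single genes, 48 lost their call under some alternative and 1 changed sign, the uncalled log2 fold change of Pcdhgc3 in E1E2 G9Gl, which was -0.031 without WT replicate 2 and ranged up to 0.23 over the libraries left out. Counts of members called changed by more than 1.5 times as follows, and the cause was not tested. With no TMM factor, 1 member was higher in E1 and 2 in 6KO1 against E1 S1S2. With DESeq2, 5 were lower in E1. With no filter on low counts, and likewise with unadjusted p, 2 were higher in 6KO1 against E1 S1S2 and 2 lower in E1E2 against E2. With no fold change minimum, 9 were higher in E1 S1S2 against WT and 9 against E1, 5 in E2, 4 in E1E2 and 1 in 6KO1 against 6KO2. With only the compared libraries, which leaves fewer samples for the spread, E1 had 0 higher and 5 lower, E1 S1S2 had 1 higher, 6KO1 had 0 higher and 9 lower, E2 had 0 higher and 6 lower, and E1E2 had 6 lower, while 3 were lower in E1 S1S2 against E1, 0 higher in 6KO1 against E1 S1S2 and 5 lower in E1E2 G9Gl against E1E2. With single libraries left out, the range was 0 to 3 higher and 5 to 8 lower in E1, 0 to 4 higher in E1 S1S2, 0 to 2 higher in E2, 2 to 4 higher in E1 S1S2 against E1 and 1 to 3 lower in E1E2 against E2. Without its largest member, Pcdhb22, the beta sum relative to WT was 0.648 in 6KO2, 0.283 in E1E2, 0.244 in E1, 0.24 in E2, 0.0611 in E1 S1S2 and 0.056 in 6KO1, lower than WT in each. Other scalings moved no count further.

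Replicate numbers are shared between conditions, but same-numbered libraries did not deviate together (r from -0.146 to 0.107, with 1 of 13 pairs of conditions above 0.1). With the replicate number as a block, 2 members were higher and 6 lower in E1, while 6KO2 had 6 and 10, 6KO1 had 1 and 14, and E1E2 G9Gl had 10 in each direction, and the block ended 3 calls on single genes, those of Pcdhb5 and Pcdhb7 in E1 and Pcdh15 in E1 S1S2. Members with few counts, such as the alpha cluster, could not be tested at this depth.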
